A study of Mus musculus with 5 samples.

Results

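The NuRD complex (nucleosome remodeling and deacetylase) was followed here through 10 of its subunit genes, the subunits other than the CHD ATPases: Mta1, Mta2, Mta3, Hdac1, Hdac2, Rbbp4, Rbbp7, Mbd3, Gatad2a and Gatad2b. They were taken by gene symbol from the deposited table of 22683 genes, and 10 of 10 were found. RNA was sequenced from satellite cells, the stem cells of skeletal muscle, described as quiescent and purified by FACS (fluorescence-activated cell sorting). The wild-type group had 2 libraries and the mdx group 3. The mdx mouse carries a mutation of the dystrophin gene Dmd in every cell and is a model of Duchenne muscular dystrophy. Each library came from 10000 to 20000 sorted cells. The sources used here do not state age, strain, sex, muscle, sorting gate or how many animals gave each library. The p-values therefore reflect only how far these 5 libraries differ within a genotype, and that spread may be technical. In the limma test used below, the spread of each gene was also drawn towards that of genes of similar level.

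NuRD joins histone deacetylation and ATP-driven nucleosome remodeling in one complex. The MTA proteins form a scaffold that holds the deacetylases HDAC1 or HDAC2 and the histone-binding proteins RBBP4 or RBBP7, and MBD3 or its alternative MBD2 bridges this part, through a GATAD2 protein, to a CHD ATPase. Most places in the complex can be filled by the product of one of several related genes, so the makeup of the complex can differ between cells. HDAC1, HDAC2, RBBP4 and RBBP7 also serve in other complexes, among them SIN3, CoREST and, for the RBBP proteins, Polycomb repressive complex 2 and the chromatin assembly factor CAF-1. The title of the series concerns epigenetic suppression of necroptosis in muscle stem cells, and CHD4 is an ATPase of this complex.

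Values below are normalized counts, which the authors scaled so that libraries of different depth can be compared and then rounded to whole numbers. The libraries summed to 12473348 to 16825045 normalized counts, and each member had at least 105 in each library. Dmd, the mutated gene, had 11826 and 9266 in wild type and 4642, 4116 and 3700 in mdx. Of 16 satellite cell markers, none was at 0 in wild type, and Pax7, the transcription factor that marks these cells, had 9103 and 7644 in wild type and 12767, 9751 and 14989 in mdx. The summed level of these 16 markers was 130141 to 146245 in wild type and 73386 to 105291 in mdx, with 4 higher, 7 lower and 5 not passing the test described below. Pax7 did not pass (log2 fold change 0.56, limma adjusted p = 0.0698). Among the 7 lower were Sdc4, at 30886 and 27833 in wild type and 3261, 2633 and 2916 in mdx, and Chodl. Chodl had 27683 and 29240 in wild type and 5854, 4554 and 7456 in mdx. Markers of other cells differed as well. Higher in mdx were 11 of 12 endothelial markers (summed level 3098 to 3613 in wild type, 19200 to 24812 in mdx), 10 of 12 macrophage markers (416 to 675 and 10640 to 16072), 11 of 12 mesenchymal markers (23492 to 33764 and 100841 to 166713), 8 of 11 tested markers of muscle differentiation (3256 to 4053 and 31066 to 74924) and 11 of 20 cell cycle genes (5874 to 6756 and 9179 to 19653). Of pericyte and smooth muscle markers 5 of 10 were higher (11006 to 14297 and 20928 to 28257), and of Schwann cell markers 6 of 8 (2232 to 3012 and 2438 to 2936). The endothelial, mesenchymal, pericyte and smooth muscle, and cell cycle lists each also held 1 gene called lower. In the cell cycle list this was Pcna, at 2792 and 3337 in wild type and 409, 590 and 743 in mdx. In wild type, Emcn and Cldn5 of the endothelial list and 6 macrophage markers, among them C1qa and Mrc1, were at 0 in each library. The X-inactivation transcript Xist had 30235 and 30176 in wild type and 0, 0 and 12 in mdx, and the Y-linked gene Uty 0 and 0 in wild type and 654, 724 and 584 in mdx, so genotype and sex cannot be told apart. The part of these other cells and of the cell cycle in the results below was not tested. In sorted bulk RNA, fewer cells of a type and less RNA per cell cannot be told apart.

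The members did not move in one direction. In mdx, Mta1, Mbd3 and Gatad2b rose and Mta2 and Rbbp7 fell, but Mbd3 and Gatad2b turned to −0.21 and −0.27 on the log2 scale under a correction for transcript length and GC content. The other 5 members did not pass. The test was limma on log2(normalized count + 2) with Benjamini-Hochberg adjustment over 18199 tested genes and a threshold of 0.05, and fold changes are on that scale. Higher calls were thus 3 of 10 and lower calls 2 of 10, while of all tested genes 24.9% were called, 14.6% higher and 10.3% lower. Among 13790 protein-coding genes the shares were 28.4%, 18.2% and 10.2%. With a stricter filter (a value of 50 in 2 or more libraries), 19.3% of 13720 genes were called higher and 14.2% lower, and the same members were called. Median log2 fold changes were 0.54 for the members and 0.13 for all tested genes. Summed over the 10 members, normalized counts were 14579 and 14603 in wild type and 12849 to 14527 in mdx. In 9 of 10 members wild-type and mdx values did not overlap, 6 with mdx above and 3 with mdx below, against 52.0% of all tested genes, 28.2% above and 23.8% below. The tested genes include many of lower level than the members, and no share was taken over genes of like level. The counts of calls depend on the libraries and on the correction for transcript length and GC content. Without any 1 of wild type 2, mdx 1, mdx 2 or mdx 3, only Mta1 and Rbbp7 were called among the members. Once the trend of values with length and GC was taken out of every library, 0 members were called higher and Rbbp7, Rbbp4 and Mta2 lower, while calls over all genes went from 2659 higher and 1868 lower to 1378 higher and 3299 lower. That correction also moved the median log2 fold change of all genes to −0.38. Corrected values below are therefore given also after recentring each library to its earlier median, a setting chosen after seeing the data, under which Mta1 and Hdac2 were called higher and Rbbp7 and Mta2 lower.

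**Figure D1:**
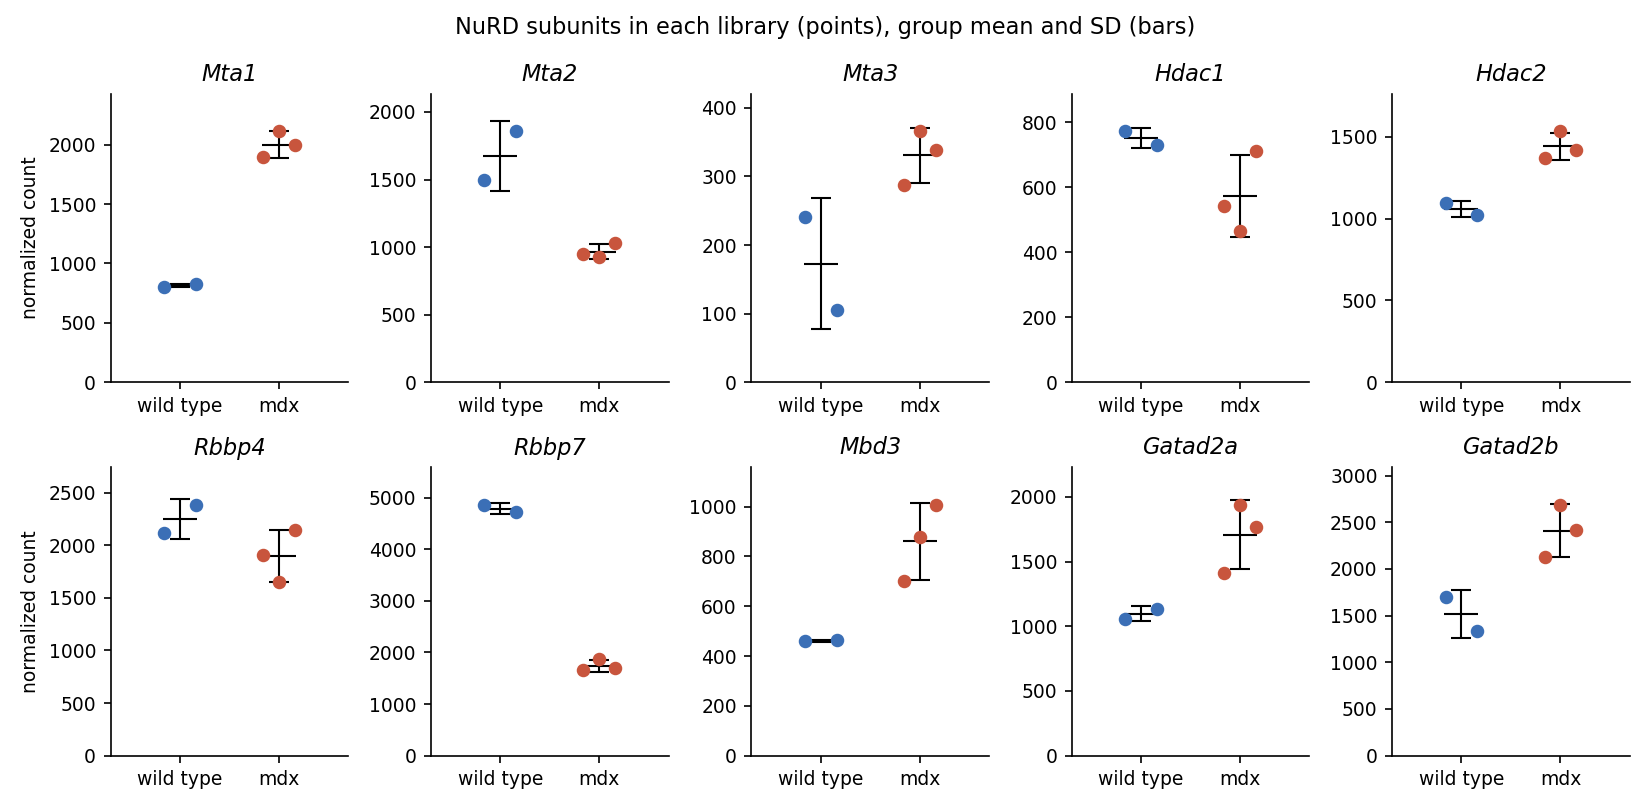
Normalized counts (vertical axes, linear from 0) of the 10 NuRD subunits in 2 wild-type libraries (blue points) and 3 mdx libraries (red points), with the group mean and SD as bars. Mta1 points sit at 805 and 824 in wild type and at 1894 to 2114 in mdx, Rbbp7 points at 4714 and 4866 and at 1664 to 1877, and the groups of Rbbp4 overlap.

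The MTA scaffold genes changed places. Mta1 (ENSMUSG00000021144, mm10 chromosome 12, 113098278 to 113137206) encodes the founding scaffold protein of the family. Its normalized count was 805 and 824 in wild type, and 1894, 2114 and 1996 in mdx 1, 2 and 3. All 3 mdx libraries lay above both wild-type libraries, and within each genotype the libraries were close together. Mta1 rose 2.45-fold, from 814.5 ± 13.4 (SD, n = 2) to 2001 ± 110.1 (SD, n = 3), with a log2 fold change of 1.29 (SE 0.20, 95% interval 0.85 to 1.74, limma adjusted p = 0.00191). The length and GC correction ended the call of Mta1, with a log2 fold change of 0.31 (limma adjusted p = 0.279), while with recentring it was 0.89 and passed (limma adjusted p = 0.0177). Mta2 (chromosome 19, 8941875 to 8952303), a paralog with the same place in the complex, had 1494 and 1858 in wild type and 948, 923 and 1029 in mdx. Both wild-type libraries lay above all mdx libraries, and the wild-type libraries differed more from each other than the mdx libraries did. Mta2 fell 1.72-fold, from 1676 ± 257 to 967 ± 55.4 (log2 fold change −0.79, SE 0.22, 95% interval −1.28 to −0.30, limma adjusted p = 0.0286). The fall of Mta2 did not pass with library totals made equal (CPM, limma adjusted p = 0.127), with moderation that used no trend and was not robust (0.158), or without wild type 2, mdx 1, mdx 2 or mdx 3 (0.156, 0.0761, 0.0796 and 0.0667). Mta3 (chromosome 17, 83706163 to 83814905), the least abundant of the family, had 241 and 105 in wild type and 287, 366 and 339 in mdx. Every mdx library was higher than both wild-type libraries, but the wild-type values differed more than 2-fold, with an SD of 96.2 around a mean of 173. The difference was 1.04 on the log2 scale (SE 0.47, 95% interval −0.02 to 2.10, limma adjusted p = 0.138) and passed only without wild type 1 (log2 fold change 1.63, limma adjusted p = 0.0229). The windows before the start sites of Mta1 and Mta2 are shown because these paralogs moved in opposite directions. They end where the gene begins in the deposited table, at chr12:113098028-113098277 and chr19:8941670-8941874 on the plus strand (RefSeq, GRCm38.p6). Capitals mark matches on either strand to CCAAT, to the GC box GGGCGG, to the ETS motif CCGGAAG, to TATAAA, to the E-box CACGTG or to the palindromic NRF1 motif.
Mta1: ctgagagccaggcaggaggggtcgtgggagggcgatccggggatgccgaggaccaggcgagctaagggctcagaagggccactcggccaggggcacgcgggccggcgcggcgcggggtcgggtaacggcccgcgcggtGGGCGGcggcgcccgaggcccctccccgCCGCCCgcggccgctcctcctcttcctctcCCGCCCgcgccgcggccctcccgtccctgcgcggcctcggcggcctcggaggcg
Mta2: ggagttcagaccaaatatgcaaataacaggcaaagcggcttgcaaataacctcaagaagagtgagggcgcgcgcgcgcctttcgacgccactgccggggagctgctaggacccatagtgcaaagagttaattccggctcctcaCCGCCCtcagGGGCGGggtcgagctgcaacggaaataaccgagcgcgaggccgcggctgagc
The Mta1 window held 3 GC boxes and 39 CpG dinucleotides in 250 bases, with a GC content of 80.8%. The Mta2 window held 2 GC boxes and 19 CpG in 205 bases, at 60% GC, and neither held a CCAAT match before the gene start.

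Within a library, the Mta1 to Mta2 ratio does not depend on the scaling, though it can change with the length and GC correction. Its log2 value was −0.89 and −1.17 in wild type and 0.997, 1.19 and 0.95 in mdx, so that Mta2 led in both wild-type libraries and Mta1 in all mdx libraries. The ratio differed by 2.08 on the log2 scale, or 4.23-fold (exact permutation test over libraries, two-sided, p = 0.1, adjusted p = 0.233 over 7 ratios). With 2 against 3 libraries, 0.1 is the smallest p this test can give, so no ratio could pass. Under the length and GC correction the Mta1 to Mta2 difference was 1.81. The Mta2 to Mta3 ratio had log2 values of 2.62 and 4.12 in wild type and 1.72, 1.33 and 1.596 in mdx (difference −1.82, exact permutation p = 0.1, adjusted 0.233). Its size rests on the wild-type libraries, at −2.57 without wild type 1 and −1.07 without wild type 2. For Mta1 to Mta3 the libraries of the genotypes overlapped (difference 0.26, exact permutation p = 0.7, adjusted 0.817). Per kilobase of the longest annotated transcript, Mta1 made up 33.0 ± 1.63% of the MTA class in wild type and 63.4 ± 1.38% in mdx, and Mta2 60.9 ± 5.37% and 27.6 ± 1.84%. Mta3 contributed 8.78% and 3.49% in the wild-type libraries and 8.24% to 9.65% in mdx. The class sum per kilobase was 835 and 916 in wild type and 1060, 1154 and 1138 in mdx.

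**Figure D2:**
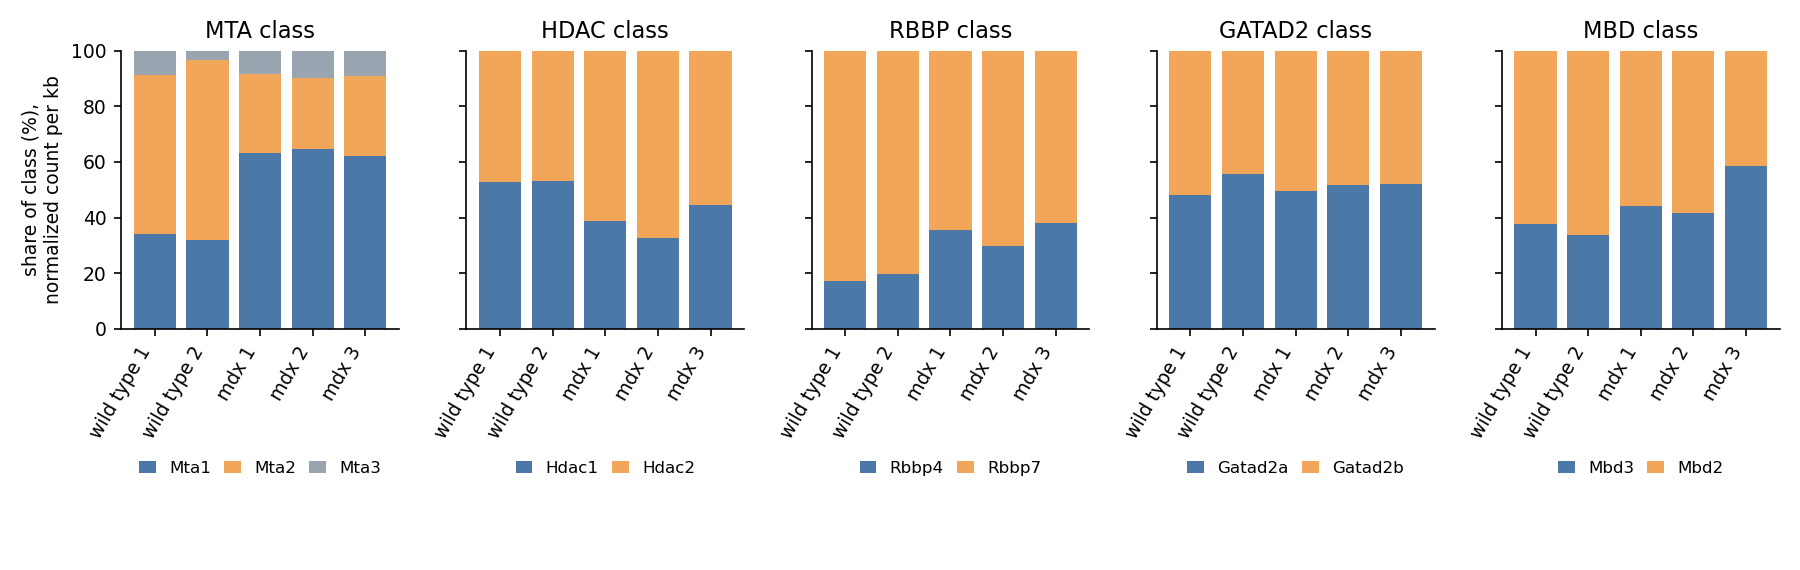
Share of each related gene in its subunit class (vertical axes, percent of the summed normalized count per kilobase of the longest transcript), 1 bar per library. Mta1 takes 31.8% to 34.1% of the MTA class in wild type and 62.1% to 64.8% in mdx, Rbbp4 17.3% to 19.6% and 29.7% to 37.9% of the RBBP class, and the GATAD2 shares of the genotypes overlap.

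The deacetylase genes did not pass the test. HDAC1 and HDAC2 are closely related enzymes that remove acetyl groups from histone tails. Hdac1 (chromosome 4, 129516104 to 129542713) had 772 and 730 in wild type and 543, 464 and 711 in mdx. All mdx libraries lay below wild type, mdx 3 by little. Its log2 fold change was −0.41 (SE 0.29, 95% interval −1.06 to 0.24) and did not pass by limma (adjusted p = 0.319). The recentred correction gave 0.05. Hdac2 (chromosome 10, 36974544 to 37001889) had 1095 and 1022 in wild type and 1368, 1534 and 1419 in mdx. Here the mdx libraries were all higher, by 0.44 on the log2 scale (SE 0.20, 95% interval −0.02 to 0.90, limma adjusted p = 0.145). It passed only under the recentred length and GC correction (log2 fold change 0.86, limma adjusted p = 0.0171). The log2 Hdac1 to Hdac2 ratio was −0.50 and −0.48 in wild type and −1.33, −1.72 and −0.99 in mdx. It was lower in all mdx libraries, by 0.85 (exact permutation p = 0.2, adjusted 0.28). Hdac1 made up 53.1 ± 0.23% of the HDAC class per kilobase in wild type and 38.6 ± 5.94% in mdx, with 44.4% in mdx 3 and 32.5% in mdx 2. The class sum hardly differed, at 716 and 673 per kilobase in wild type and 687, 700 and 785 in mdx. The Hdac1 transcript has near-identical processed copies, of which Gm10093 matches 1444 bases at 99.4% identity and had 6, 3, 0, 33 and 7 normalized counts in the libraries in the same order. The sources used here do not say how reads that map to several places were counted, so the level of Hdac1 is uncertain.

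The histone-binding class held the largest fall. RBBP4 and RBBP7 are related WD40-repeat proteins that bind histones H3 and H4. Rbbp7 (ENSMUSG00000031353, chromosome X, 162760402 to 162779092) had 4866 and 4714 in wild type, the highest of the members, and 1664, 1877 and 1692 in mdx. All mdx libraries were far below both wild-type libraries, and the spread within each genotype was small. Rbbp7 fell 2.75-fold, from 4790 ± 107 to 1744 ± 116 (log2 fold change −1.46, SE 0.17, 95% interval −1.85 to −1.06, limma adjusted p = 0.000538). It kept this direction and passed under 16 of 16 alternative settings, with log2 fold changes from −1.57 to −0.997. Rbbp7 is the only X-linked member. Of 560 tested genes of the X chromosome, 103 (18.4%) were called lower and 47 (8.39%) higher, with a median log2 fold change of −0.50. On the autosomes 1765 of 17631 were called lower and 2608 higher, with a median of 0.15. As the wild-type libraries carry Xist and the mdx libraries do not, genotype and sex cannot be told apart for Rbbp7. Rbbp7 also shares 174 exonic bases with Txlng on the opposite strand, and Txlng, encoding a taxilin, had 843 and 881 in wild type and 475, 393 and 228 in mdx. The sources used here do not state the strand setting of the counting, so reads there cannot be assigned to one gene. A processed copy, Gm6382, matches 942 bases of the Rbbp7 transcript at 97.1% identity. Gm6382 is not among the genes of the deposited table, and how reads that match both were counted is not stated. The window before Rbbp7 is shown because it was the member with the largest difference. It spans chrX:162760122-162760371 on the plus strand, 5′ to 3′, with capitals as above.
Rbbp7: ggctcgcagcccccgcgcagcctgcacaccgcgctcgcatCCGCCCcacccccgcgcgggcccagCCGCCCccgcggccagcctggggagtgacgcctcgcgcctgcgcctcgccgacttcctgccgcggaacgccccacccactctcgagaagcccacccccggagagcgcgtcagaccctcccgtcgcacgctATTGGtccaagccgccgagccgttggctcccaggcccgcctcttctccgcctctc
This window held 2 GC boxes and 1 CCAAT match, read as ATTGG on the printed strand, with 34 CpG and a GC content of 76.4%.

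Rbbp4 (chromosome 4, 129307100 to 129335370) had 2117 and 2386 in wild type and 1903, 1649 and 2148 in mdx. It was the member whose groups overlapped, since mdx 3 lay above wild type 1. On the log2 scale the difference was −0.25 (SE 0.20, 95% interval −0.70 to 0.20, limma adjusted p = 0.385). Rbbp4 and Hdac1 lie 180.7 kb apart on the same strand of chromosome 4, and in both mdx 2 was the lowest and mdx 3 the highest mdx library. Neither gene passed the test, and a link between them was not tested. On the opposite strand, Rbbp4 shares 782 exonic bases with Sync, encoding the intermediate filament protein syncoilin, which had 46 and 17 in wild type and 479, 539 and 745 in mdx. The log2 Rbbp4 to Rbbp7 ratio was −1.20 and −0.98 in wild type and 0.19, −0.19 and 0.34 in mdx. It was higher in all mdx libraries, by 1.21 or 2.31-fold (exact permutation p = 0.1, adjusted 0.233). Under the length and GC correction the difference in this ratio was 0.88. Per kilobase, Rbbp4 made up 18.4 ± 1.61% of the class in wild type and 34.4 ± 4.22% in mdx. The class sum was 2622 and 2612 per kilobase in wild type and 1150, 1190 and 1215 in mdx, which is 0.453 of the wild-type mean and the only one of the 5 class sums with a lower mean in mdx.

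MBD3, which lacks the methyl-CpG binding of its relatives in mammals, and MBD2, which binds methylated DNA, form separate NuRD assemblies. Mbd3 (chromosome 10, 80392539 to 80399550) had 459 and 465 in wild type and 700, 878 and 1008 in mdx. The wild-type libraries were nearly equal, and the mdx libraries lay above them with a wider spread. Mbd3 rose 1.84-fold, from 462 ± 4.24 to 862 ± 155 (log2 fold change 0.88, SE 0.27, 95% interval 0.26 to 1.498, limma adjusted p = 0.0441), but turned to −0.21 under the length and GC correction without recentring (0.36 with it, limma adjusted p = 0.403). Its call also ended without each 1 of the 5 libraries, with limma adjusted p from 0.0539 to 0.125, with no filter on low values (0.0525) and without trend in the moderation (0.145). Mbd2 had 891 and 1079 in wild type and 1047, 1446 and 840 in mdx, and its groups overlapped (log2 fold change 0.14, limma adjusted p = 0.744). The log2 Mbd3 to Mbd2 ratio was −0.95 and −1.21 in wild type and −0.58, −0.72 and 0.26 in mdx. It was higher in all mdx libraries, by 0.74, with mdx 3 apart from the others (exact permutation p = 0.2, adjusted 0.28), and by 0.43 without mdx 3. Under the length and GC correction the difference in this ratio was 0.18. Mbd3 was 35.7 ± 2.89% of the pair per kilobase in wild type and 48.0 ± 9.13% in mdx.

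GATAD2A and GATAD2B link the MBD protein to the ATPase and occupy one place in the complex. Gatad2b (chromosome 3, 90293178 to 90363407) had 1700 and 1339 in wild type and 2128, 2689 and 2417 in mdx. All mdx libraries were above both wild-type libraries. It rose 1.59-fold, from 1520 ± 255 to 2411 ± 281 (log2 fold change 0.67, SE 0.21, 95% interval 0.20 to 1.14, limma adjusted p = 0.0441), but turned to −0.27 under the length and GC correction without recentring (0.31 with it, limma adjusted p = 0.283). The call also ended without wild type 2, mdx 1, mdx 2 or mdx 3 (limma adjusted p = 0.192, 0.0729, 0.129 and 0.117), in CPM (0.0559) and without trend in the moderation (0.228). Gatad2a (chromosome 8, 69907076 to 69996384) had 1054 and 1136 in wild type and 1414, 1940 and 1768 in mdx. Its mdx libraries were all higher as well, and its log2 fold change of 0.63 did not pass (SE 0.22, 95% interval 0.13 to 1.13, limma adjusted p = 0.0666). Under the length and GC correction the value of Gatad2a was −0.65, and −0.08 with recentring. Before correction, no shift within the pair was detected. The log2 Gatad2a to Gatad2b ratio was −0.69 and −0.24 in wild type and −0.59, −0.47 and −0.45 in mdx. The mdx libraries lay between the wild-type libraries (difference −0.04, exact permutation p = 1, adjusted 1). Under the length and GC correction the difference in this ratio was −0.39. Gatad2a was 51.9 ± 5.53% of the pair per kilobase in wild type and 51.2 ± 1.30% in mdx. The windows before Mbd3 and Gatad2b are shown as those of the other members that rose. They lie at chr10:80399551-80399781 on the minus strand and chr3:90292931-90293177 on the plus strand.
Mbd3: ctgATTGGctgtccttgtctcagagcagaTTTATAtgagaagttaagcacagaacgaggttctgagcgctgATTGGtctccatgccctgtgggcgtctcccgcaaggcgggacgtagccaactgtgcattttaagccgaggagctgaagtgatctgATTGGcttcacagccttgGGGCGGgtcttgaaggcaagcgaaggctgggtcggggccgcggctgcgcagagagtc
Gatad2b: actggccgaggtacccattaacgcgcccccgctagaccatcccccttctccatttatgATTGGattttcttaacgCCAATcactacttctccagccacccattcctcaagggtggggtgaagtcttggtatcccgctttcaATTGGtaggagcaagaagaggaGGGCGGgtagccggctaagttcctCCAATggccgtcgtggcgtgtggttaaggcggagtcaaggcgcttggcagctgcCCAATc
The Mbd3 window held 3 CCAAT matches, 1 GC box and 1 TATAAA match, and the Gatad2b window 5 CCAAT matches and 1 GC box. Their GC contents were 57.1% and 55.9%, with 13 CpG in each, lower than in the windows of Mta1 and Rbbp7. Promoters were found for 8 of the 10 members, all but Mta3 and Hdac1. In the 250 bases before the RefSeq start, 8 of 8 held a GC box and 5 of 8 (Rbbp4, Rbbp7, Mbd3, Gatad2a and Gatad2b) a CCAAT match, against 32.7% and 33.8% of 32851 promoters of the same length. The ETS motif was found in 1 of 8 (Mta2, beyond the printed bases) against 6.91%, TATAAA in 1 of 8 (Mbd3) against 12.4%, the E-box in 1 of 8 (Rbbp4) against 6.02% and the NRF1 motif in 0 of 8 against 0.782%. Over these 32851 promoters the median was 52.4% GC with 6 CpG, lower than in each printed window. The motif shares were not compared with promoters of like GC content. Members that rose and members that fell both held GC boxes.

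**Figure D3:**
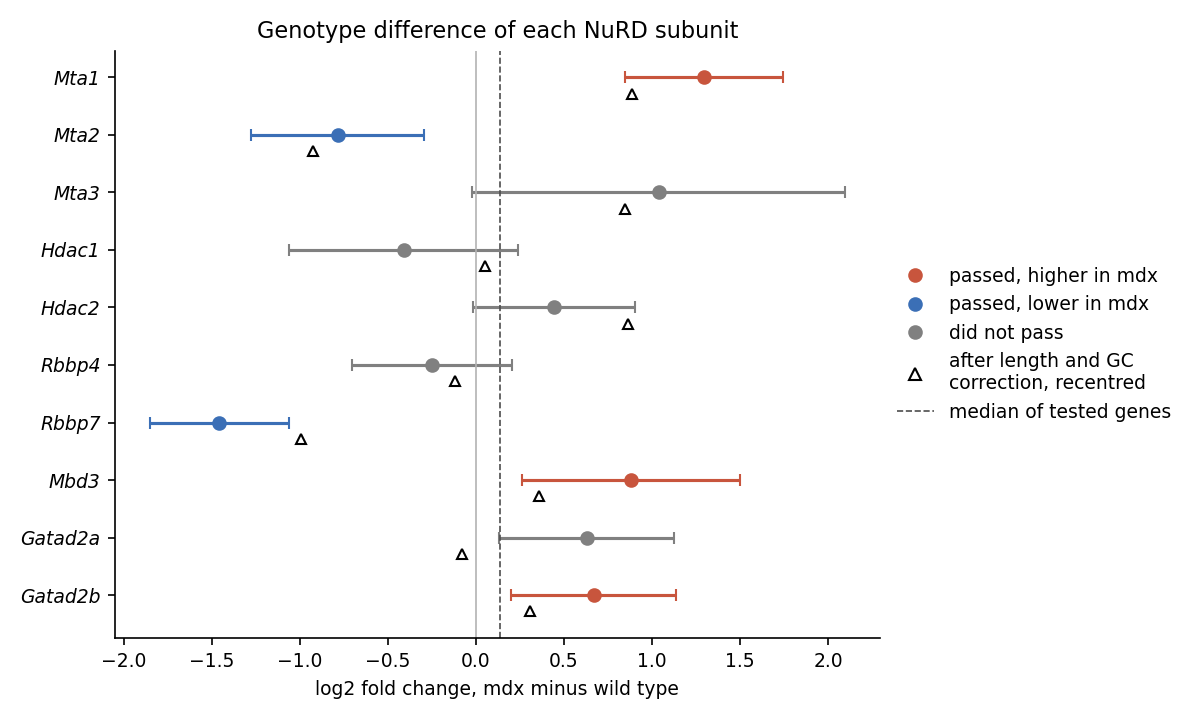
Log2 fold change, mdx minus wild type, of each member (horizontal axis) with its 95% interval from limma, red for higher and blue for lower where the test passed and grey where it did not. Open triangles give the value after length and GC correction with recentring, and the dashed line the median of all tested genes, 0.13; the triangle of Gatad2a (−0.08) and that of Hdac1 (0.05) lie on the other side of 0 from their circles.

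The order of the members' levels differed between the genotypes. Per kilobase of longest transcript, Rbbp7 led in wild type with 2135 ± 47.9 (SD, n = 2), followed by Mta2 (535 ± 82.1), Rbbp4 (483 ± 40.8), Hdac1 (368 ± 14.6), Hdac2 (326 ± 15.9), Mta1 (288 ± 4.75), Mbd3 (278 ± 2.55), Gatad2a (219 ± 11.6), Gatad2b (204 ± 34.3) and Mta3 (52.6 ± 29.3). Among these neighbours, Mta2 and Rbbp4, and Gatad2a and Gatad2b, overlapped between libraries. In mdx the order was Rbbp7 (777 ± 51.6, n = 3), Mta1 (708 ± 39.0), Mbd3 (519 ± 93.0), Hdac2 (443 ± 26.2), Rbbp4 (407 ± 53.5), Gatad2a (341 ± 53.6), Gatad2b (324 ± 37.7), Mta2 (308 ± 17.7), Hdac1 (281 ± 61.9) and Mta3 (101 ± 12.2). There, Rbbp7 and Mta1 overlapped, as did each pair of neighbours from Mbd3 down to Hdac1. By this length, Mta1 went from rank 6 to rank 2 and Mta2 from rank 2 to rank 8. The levels and ranks rest on annotated transcript lengths, and both would differ with exon unions as length. Exon unions lengthen the genes unequally, from 2826 to 3104 bases for Mta1 and from 4663 to 8744 bases for Rbbp4. With them the shares within classes shifted, as given in the closing section.

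The other parts of the complex, listed by textbook knowledge, were set beside the members. Chd4, encoding the main NuRD ATPase, had 4211 and 4491 in wild type and 8791, 9026 and 7187 in mdx. Chd3, encoding a related ATPase, had 256 and 265 and then 1097, 1031 and 1016. Before correction both rose, with log2 fold changes of 0.93 (SE 0.17, limma adjusted p = 0.00424) and 2.00 (SE 0.26, limma adjusted p = 0.000824). Under the length and GC correction Chd4 turned to −0.54 and passed as lower in mdx (limma adjusted p = 0.0343). With recentring Chd4 was at 0.04 and did not pass (0.883). Chd3 went to 0.17, and to 0.75 with recentring. The call of Chd3 ended under both (limma adjusted p = 0.652 and 0.0721), and that of Chd4 also ended without trend in the moderation (0.116). Chd5, an ATPase gene best known from neurons, had 19 and 9 in wild type and 47, 27 and 32 in mdx, a difference that missed the threshold (limma adjusted p = 0.407). Cdk2ap1 and Cdk2ap2, encoding small accessory subunits, did not pass either (log2 fold changes 0.28 and −1.41, limma adjusted p = 0.768 and 0.0676).

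Among 18 tested genes for proteins that recruit or bind NuRD, 10 were higher in mdx, 0 lower and 8 did not pass, with a median log2 fold change of 1.69. These counts are before the length and GC correction. Over all 8 lists set beside the members, 22 genes were called, against 21 in either direction with that correction and 14 with recentring. The member of this list with the smallest p was Zfp521, encoding a zinc finger protein, at 450 and 511 in wild type and 1890, 2140 and 2275 in mdx. Of complexes that share HDAC1, HDAC2, RBBP4 or RBBP7 with NuRD, 19 tested SIN3 genes gave 1 higher (Phf12), 1 lower (Ogt) and 17 not passing, with a median of 0.01. Under the length and GC correction Phf12 went from 1.69 to 0.52 and did not pass (limma adjusted p = 0.242). With recentring Phf12 was at 1.10 and passed (0.0341). The call of Ogt, at −0.74, ended in CPM (limma adjusted p = 0.117), with quantile normalization (0.0989), with the recentred correction (0.0823), without trend in the moderation (0.199) and without wild type 1, mdx 2 or mdx 3 (0.078, 0.0951 and 0.0979). Of 11 tested CoREST genes, 2 were higher, 1 was lower and 8 did not pass (median 0.46), with Gse1 at 154 and 96 in wild type and 886, 1028 and 740 in mdx, and Zmym2 lower at 3546 and 3670 and then 2260, 2595 and 2166. Gse1 went from 2.83 to 0.92 under the length and GC correction and did not pass (limma adjusted p = 0.0795). The call of Zmym2, at −0.63, ended in CPM (limma adjusted p = 0.227), with quantile normalization (0.108), with the recentred correction (0.0549), without trend in the moderation (0.224) and without wild type 2, mdx 1, mdx 2 or mdx 3 (0.0851, 0.0886, 0.0525 and 0.0865). The MiDAC deacetylase genes together with Rere gave 3 of 4 higher (median 1.27), and Rere, a corepressor gene, had the smallest p there (log2 fold change 1.61, but −0.16 under the length and GC correction, 0.42 with recentring). In the core of Polycomb repressive complex 2, 0 of 4 were higher and 1 lower: Eed, which encodes the subunit that reads methylated histone H3, had 1006 and 1038 in wild type and 227, 263 and 311 in mdx (median of the list −0.53). Among 5 genes of CAF-1, NURF and Smarca5, 1 was higher, the NURF gene Bptf, with a log2 fold change of 0.93. Under the length and GC correction Bptf turned to −0.68 and passed as lower in mdx (limma adjusted p = 0.0213). With recentring Bptf was at −0.10 and did not pass (0.718). Its call also ended without trend in the moderation and without mdx 1 or mdx 2 (limma adjusted p = 0.148, 0.0711 and 0.0747). These lists are described by counts and medians, read beside 14.6% higher and 10.3% lower over all tested genes. Over protein-coding genes the shares were 18.2% and 10.2%.

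**Figure D4:**
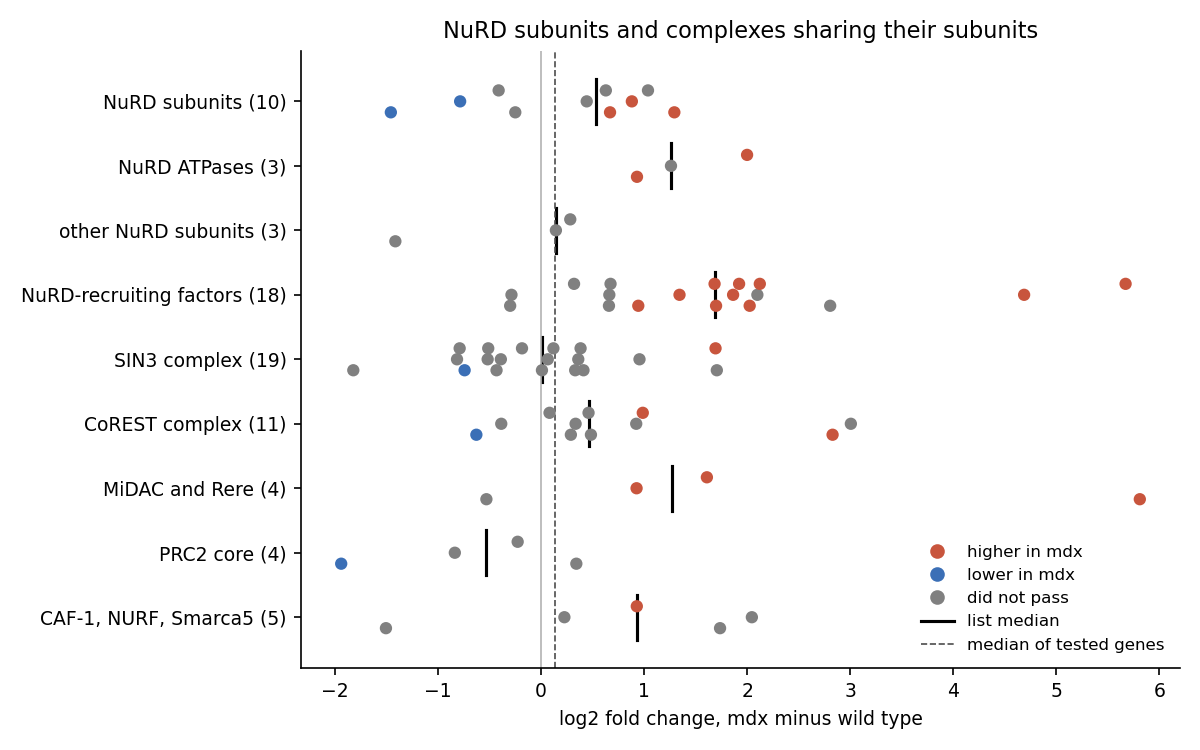
Log2 fold change, mdx minus wild type (horizontal axis), of each tested gene (points) of the NuRD subunits and of the lists set beside them, with the number tested in brackets, list medians as black bars and the median of all tested genes, 0.13, as a dashed line. The members run from −1.46 (Rbbp7) to 1.29 (Mta1), and the SIN3 list is centred at 0.01; values are without length and GC correction, under which Mbd3, Gatad2a, Gatad2b, Chd4, Chd5, Mbd2, Rere and Bptf turned from positive to negative.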

How the data were processed

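RNA was measured by sequencing in 2 wild-type and 3 mdx libraries prepared with SMARTer Stranded Total RNA-Seq chemistry, per the labels' protocols. The submitters' processing notes name STAR 2.6.1d, featureCounts 1.6.3, DESeq2 1.18.1 and the build mm10. The values in the deposited table are whole numbers treated as a score: counts normalized by the authors to equal median ratios between libraries and then rounded. This was read from the values, in which 1 read was worth an estimated 0.860 to 1.245. Since these are no raw counts, they were tested on the log scale.

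Genes reaching a value of 10 in 2 or more libraries entered limma 3.58.1 (R 4.3.3; trend, robust) on log2(value + 2), with genotype as the only term and adjustment over all tested genes. Differences are relative to the typical gene. The scripts were tested on simulated data. The 7 ratios of related subunits were tested by exact permutation over libraries. Transcript lengths came from GENCODE M21 (22649 of 22683 identifiers found), copies from BLAST 2.17.0 and promoters from RefSeq (GRCm38.p6). Named genes are the members, the other NuRD subunits, Dmd and Pax7, and for each further complex the called gene with the smallest p in each direction. Some other genes (Xist, Uty, Sync, Txlng, Gm10093 and named cell markers) were chosen after their values were seen. The members and lists were chosen with earlier results of these data known. Alternatives changed the pseudocount, filter, scaling, moderation, block and libraries. One list of related genes is not reported here.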

Additional observations from a re-analysis of the deposited data

How the results depend on the processing

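Each member was refitted under 16 alternatives, 15 of them planned. Rbbp7 kept its call in 16 of 16 and Mta1 in 14 of 16, both exceptions being fits with length and GC correction (log2 fold changes 0.31 and, with the replicate block, 0.38). The 3 higher and 2 lower members became 0 higher with length and GC correction, alone or with the replicate block, 1 higher and 1 lower with moderation that used no trend and was not robust, and 1 lower in CPM. Members called in either direction, 5 at first, were 3 in CPM and with length and GC correction, and 2 without trend or with both the block and that correction. The replicate numbers pair nothing that the labels state, and the deviations of same-numbered libraries correlated at −0.014 and −0.017. With the replicate block, where mdx 3 has no wild-type partner, members called were 1 higher and 1 lower (2 in all), all genes 1163 higher and 860 lower, and genes of the 8 lists set beside the members 11 instead of 22. The calls of Mta2, Mbd3, Gatad2b, Ogt and Zmym2 ended with the block (limma adjusted p = 0.109, 0.187, 0.164, 0.0991 and 0.151), and that of Zfp521 ended with the block and length and GC correction (0.0741). With the replicate block and length and GC correction, 759 genes were higher, and 10 listed genes were called. All genes were 1378 higher and 3299 lower with length and GC correction, and 1150 lower without trend. Listed genes called were 14 with the recentred correction and 10 without trend. Leaving out 1 library gave 1 to 3 members higher, 1 to 2 lower and 2 to 5 in all, 1450 to 3308 genes higher and 1112 to 1853 lower, and 12 to 26 listed genes. The cause of these changes was not tested.

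Under the length and GC correction, the correction with the replicate block and the recentred correction, in this order, these log2 fold changes turned negative: Mbd3 (−0.21, −0.22, not the third), Gatad2a (−0.65, −0.68, −0.0775), Gatad2b (−0.27, −0.33, not the third), Chd4 (−0.54, −0.46, not the third), Chd5 (−0.89, −0.88, −0.31), Mbd2 (−0.40, −0.14, not the third), Rere (−0.16, −0.14, not the third), Bptf (−0.68, −0.58, −0.10) and Pax7 (−0.99, −1.14, −0.42). Relative to the median of all genes under the first of these, −0.38, Mbd3 and Gatad2b stood at 0.16 and 0.11 and Gatad2a at −0.28. Pax7 passed as lower in mdx under the correction alone and with the block (limma adjusted p = 0.00572 and 0.0086), but not with recentring (0.156). In CPM (limma adjusted p = 0.0411), with quantile normalization (0.00111) and with no filter (0.0354), Pax7 passed as higher. Hdac1 turned to 0.0482 with the recentred correction, and Mbd2 to −0.0641 without mdx 2 (0.327 without mdx 3, the highest with 1 library left out). The Mta1 to Mta3 difference turned to −0.35 without wild type 1, and the Gatad2a to Gatad2b difference to 0.19 without wild type 2 and 0.0021 without mdx 1. Their ranges over left-out libraries ran from −0.35 to 0.86 and from −0.27 to 0.19, and that of Mta2 to Mta3 from −2.57 to −1.07. With exon unions as length, class shares in wild type and mdx were 37.3% and 68.4% for Mta1, 25.1% in mdx for Mta2, 6.58% in mdx for Mta3, 48.0% in wild type for Hdac1, 13.5% and 26.6% for Rbbp4, 59.7% and 59.1% for Gatad2a and 43.3% in wild type for Mbd3. The lowest value of a member was 105 normalized counts (Mta3, wild type 2). With 2 and 3 libraries, the spread between libraries, moderated over genes in limma, sets the precision.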
